A study of Homo sapiens with 4 samples.

Results

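Keratins and a small set of junction genes were examined in MDA-MB-231, an established human breast cancer cell line of the triple-negative type with a mesenchymal look. The 10 genes were chosen by symbol, as the keratins KRT7, KRT8, KRT18, KRT19, KRT80 and KRT81 and the junction genes CLDN7, TJP1, OCLN and DSP. All 10 had a row in the deposited table, with 43 of its 43596 transcripts, against 15113 genes listed in all. The cells carried no engineered allele, and were treated for 24 h with the solvent DMSO (2 libraries) or with 10 µM KH-3, a small-molecule inhibitor of the RNA-binding protein HuR (2 libraries). The table gives 1 mean normalized read count per transcript, which the authors averaged over libraries, and no value per library or per condition. Each level below is therefore a mean over libraries that cannot be split by condition, without an error, and the effect of KH-3 on these genes was not analysed here. Which libraries entered the mean, and their depth, are not given in the sources used here. The methods also name a group with a lower dose of KH-3, not analysed here, whose libraries may be part of the mean. The lowest mean normalized read count listed was 7.34 and the median was 50.8, so a gene that is not listed may still have had a few reads.

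Keratins are the intermediate filament proteins of epithelial cells. They assemble only as pairs of a type I and a type II protein, and KRT8 with KRT18 is the pair of simple epithelia, joined there by KRT7 and KRT19. Desmosomes anchor these filaments at cell contacts, while tight junctions seal the space between neighbouring cells. Loss of such junctions and a gain of vimentin mark cells that have taken on mesenchymal features.

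Among the markers of this cell line, mesenchymal genes had the higher levels and luminal genes the lower, where a level is the mean normalized read count per kb of transcript, summed over the listed transcripts of a gene. All 6 mesenchymal markers were listed, led by VIM at 10135 reads per kb, AXL at 2820 and CAV1 at 2599, and 4 of them exceeded the 108 reads per kb of the median gene. SNAI2 and ZEB1, at 69.4 and 54.4, did not. Of 7 luminal markers 4 were listed, namely EPCAM, FOXA1, ERBB3 and GATA3, at 29.5 to 43.3 reads per kb, and none of these reached the median gene. None of 3 leukocyte markers was listed. The fibroblast markers COL1A1, PDGFRB and COL3A1 were listed at 39.4 reads per kb or less. Of the 10 genes, KRT81 and CLDN7, at 33.0 and 16.4 reads per kb, were as low as these luminal markers or lower, and OCLN at 80.6 was also below the median gene, while the other 7 genes exceeded it.

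The 10 genes spanned a wide range. Their levels ran from 6175 reads per kb for KRT7 to 16.4 for CLDN7, and 7 of the 10 lay above the median gene. The 6 keratins together held 95.7% of the summed level of the 10 genes, 15005 reads per kb against 671 for the 4 junction genes. On the scale of read counts, which favours long transcripts, the keratin share was 79.4%.

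**Figure D1:**
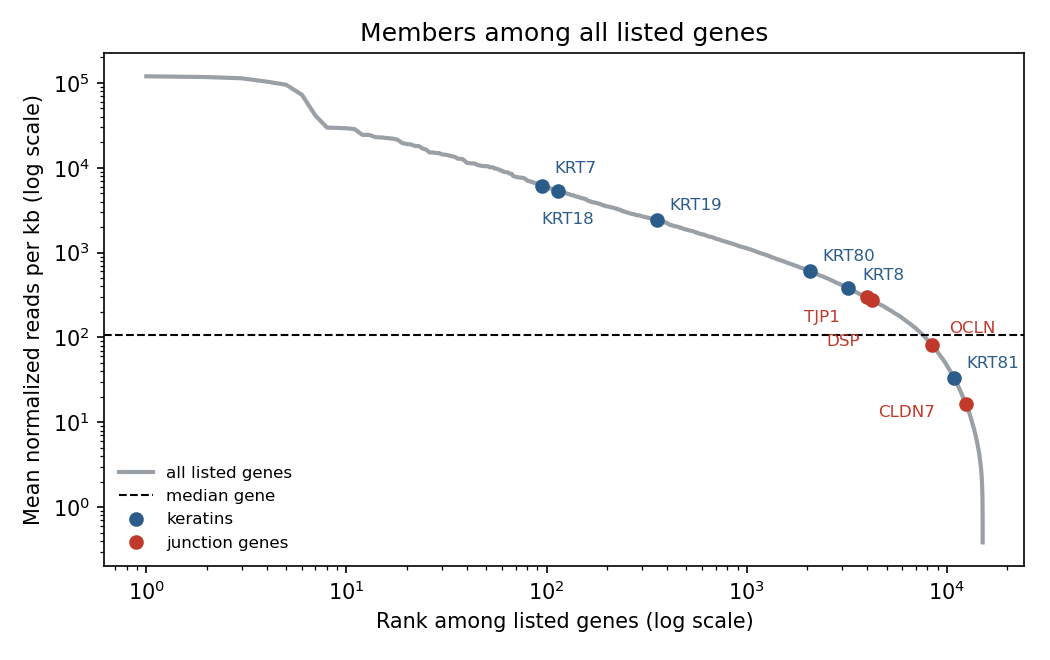
All 15113 listed genes in order of their level in mean normalized reads per kb, both axes logarithmic, with the keratins in blue, the junction genes in red and the median gene as a dashed line. KRT7, KRT18 and KRT19 lie at ranks 95, 114 and 356, while OCLN, KRT81 and CLDN7 lie below the median gene.

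KRT18, the type I keratin of simple epithelia, is a gene of the plus strand of chromosome 12 (52948871 to 52952906, hg38 as for all positions here). Its 7 listed transcripts summed to a mean normalized read count of 7143, the highest of the 10 genes, and to a level of 5378 reads per kb. The protein-coding KRT18-201, of 1420 bases in 8 exons, held 66.1% of these reads with a mean count of 4722. The retained-intron KRT18-003, of 2088 bases, followed with 1469, and the retained-intron KRT18-005 had 557. Transcripts annotated with a retained intron made up 29.1% of the KRT18 reads, against 5.54% of the reads of the whole table. The value of each transcript rests on how eXpress divided reads that several transcripts share.

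KRT8, the type II partner of KRT18, lies beside it on the minus strand from 52897187 to 52949954, and both annotations overlap over 1084 bases. Its 5 listed transcripts summed to a mean normalized read count of 719 and a level of 384 reads per kb, at rank 3198 and above the median gene. The leading transcript KRT8-001 had 430, KRT8-002 had 179 and KRT8-011 had 82.2. The level of KRT18 was thus 14.0 times that of KRT8, and by read counts the ratio was 9.93. KRT8 is not the only type II keratin here, and KRT7 had 6175 reads per kb. Under every alternative tried KRT18 stood at least 9.93 times above KRT8.

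Both genes have many processed pseudogenes, that is, copies of the mature mRNA in the genome. Of the 9 keratin pseudogenes listed, 7 were copies of KRT8, and their reads summed to 352, which equals 49.0% of the reads of KRT8 itself. KRT8P36, on chromosome 3, led with a mean normalized read count of 191, followed by KRT8P12 with 102 and KRT8P33 with 17.6. For KRT18 only the pseudogene KRT18P59 was listed, with 12.3 reads. The KRT8P36 sequence was identical to the KRT8 coding sequence at 93.5% of 1435 aligned bases. A stretch of 30 bases is written 5′ to 3′ from the GENCODE release 44 transcripts, with the differing base in capitals. The stretch was chosen to hold just that difference. It therefore does not stand for the whole alignment, where 93.5% of bases were identical. In KRT8 it spans coding bases 18 to 47, in an exon at chr12:52904935-52904964 of hg38 on the minus strand.
KRT8: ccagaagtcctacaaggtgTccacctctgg
KRT8P36: ccagaagtcctacaaggtgCccacctctgg
The substitution is T20C, counted from the first base of the stretch, with the gene first. A read that covers no such base cannot be assigned to one or the other. The part of read assignment in the level of KRT8, low beside that of KRT18, was not tested.

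The share of runs of 50 bases that also occur in a transcript of another gene was computed for the leading transcript of each gene. It was highest for KRT18-201, with 52.5% of its runs found in 45 other genes. Of its 1371 runs, 326 were found in KRT8, whose annotation overlaps that of KRT18, and 151 in KRT18P11. KRT81-001 shared 44.6% of its runs and KRT8-001 36.9%. Of the 2077 runs of KRT8-001, 395 were found in the pseudogene KRT8P3, which is not listed, and 144 in the listed KRT8P45. KRT8P36, the listed pseudogene with most reads, held no more than the 48 found in KRT8P14. By contrast TJP1-009 and DSP-001 shared none of theirs, and KRT80-002 shared 0.418%. The levels of TJP1, DSP, KRT80 and KRT19 (1.79% shared) are thus those least open to reads of other genes, and the levels of KRT18, KRT8 and KRT81 carry that uncertainty.

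**Figure D2:**
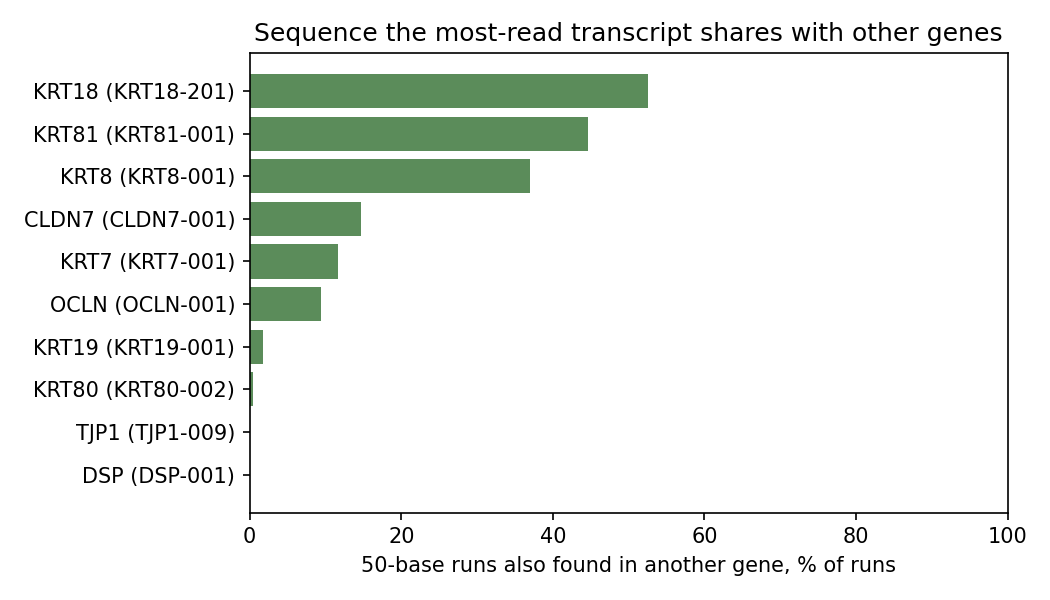
Percent of the 50-base runs of each gene's leading transcript that also occur, on either strand, in a GENCODE release 44 transcript of another gene. The bars of KRT18, KRT81 and KRT8 reach 52.5%, 44.6% and 36.9%, and those of TJP1 and DSP are at 0.

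KRT7, a type II keratin of simple and ductal epithelia, lies on chromosome 12 from 52232520 to 52252186 on the plus strand. It had 12 listed transcripts, the most of the 10 genes, with a summed mean normalized read count of 5212 and the highest level, 6175 reads per kb. The protein-coding KRT7-001, of 1754 bases as deposited, held 64.6% of the reads with a count of 3369. In release 44 it has 1625 bases in 9 exons. Another protein-coding entry, KRT7-201, is only 398 bases long and had 899 reads, so that it alone made up 36.6% of the per-length level. The processed transcript KRT7-018, of 329 bases, had 305 reads. Without transcripts under 500 bases the level of KRT7 was 2511 reads per kb, and its ratio to KRT18 fell from 1.15 to 0.467. The order of KRT7 and KRT18 therefore depends on these short entries, and by read counts KRT18 came first. The antisense gene KRT7-AS overlaps KRT7 over 2401 bases, and the library kit did not mark strand, so reads of both cannot be told apart there.

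**Figure D3:**
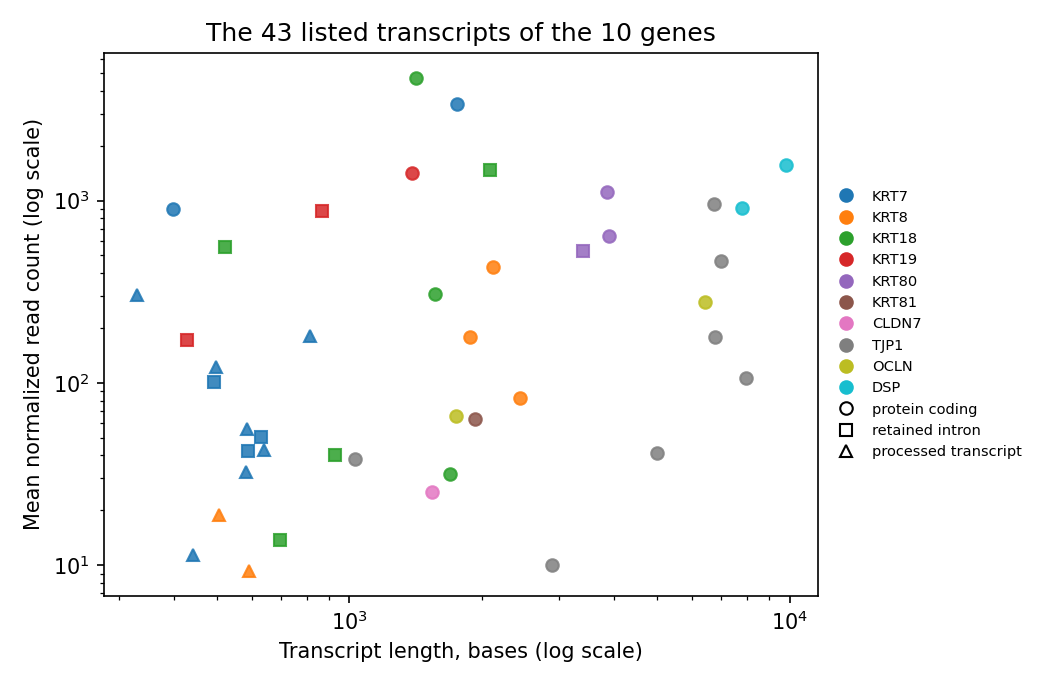
The 43 listed transcripts by length (bases) and authors' mean normalized read count, both on log axes, coloured by gene with the transcript type as the marker shape. KRT18-201 and KRT7-001 stand at the top with 4722 and 3369 reads, and the short KRT7 entries lie at the left.

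KRT19, a type I keratin that lacks the usual tail, lies on chromosome 17 from 41523617 to 41528308 on the minus strand. Its summed mean normalized read count was 2458 and its level 2426 reads per kb, at rank 356. The protein-coding KRT19-001 had 1410 reads, the retained-intron KRT19-005 had 875 and the retained-intron KRT19-004 had 172. The retained-intron share of its reads, 42.6%, was the highest of the 10 genes. Only 41.8% of its per-length level came from the protein-coding transcript.

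KRT80 and KRT81 are type II keratins with other habitats. KRT80, found in many stratified epithelia, lies on chromosome 12 from 52168996 to 52192014 on the minus strand and had a level of 608 reads per kb at rank 2075. Its reads were spread over KRT80-002 with 1108, KRT80-001 with 643 and the retained-intron KRT80-003 with 529. KRT81, a hair keratin, lies from 52285913 to 52291534 of the same chromosome on the minus strand. It was listed with 1 transcript of 63.7 reads, a level of 33.0 reads per kb. Its close relative KRT86 had 9.80 reads in 1 transcript. The KRT86 annotation, on the plus strand, overlaps KRT81 over 5622 bases, the whole extent of KRT81. On either strand, 38.4% of the runs of KRT81-001 also occur in KRT86, so the split between these genes is uncertain. The part of this overlap in the shared runs was not tested.

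Set by keratin type, the type II genes KRT7, KRT8, KRT80 and KRT81 summed to 7201 reads per kb and the type I genes KRT18 and KRT19 to 7804, a ratio of 0.923. With protein-coding transcripts alone the ratio was 1.10, and the 398-base KRT7-201 is among these. Under the other alternatives it lay between 0.478, without transcripts under 500 bases, and 0.887. Type I genes thus had the higher sum under every setting but protein-coding transcripts alone. Of the other keratins, 1 of 22 type II genes was listed, KRT86. Of 26 other type I genes 3 were listed, namely KRT10 at 708 reads per kb, KRT15 at 138 and KRT34 at 28.4. KRT10, a keratin of differentiated epidermis, thus had a higher per-length level than KRT80 and KRT8, but its summed mean count of 508 was below theirs. Vimentin, the type III filament protein of mesenchymal cells, stood above every keratin with 21693 reads and 10135 reads per kb. LMNB2 and LMNB1, lamins of the nuclear envelope, had 1292 and 658.

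**Figure D4:**
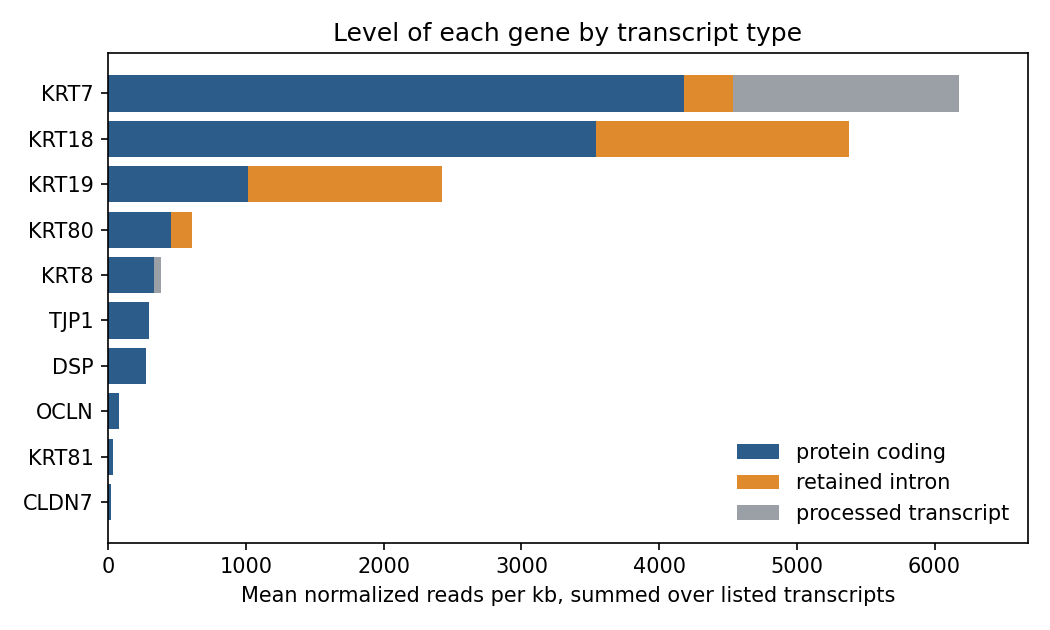
Level of each of the 10 genes in mean normalized reads per kb, split by transcript type as annotated in the deposited table. Non-coding entries make up most of the KRT19 bar and part of the KRT7, KRT18, KRT80 and KRT8 bars. KRT81 and the 4 junction genes have protein-coding entries only.

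DSP encodes desmoplakin, which ties keratin filaments to desmosomes, and lies on chromosome 6 from 7541338 to 7586714 on the plus strand. Its mean normalized read count of 2480 was the third among the 10 genes, but its transcripts are long, and its level was 277 reads per kb at rank 4225. DSP-001, of 9796 bases, had 1573 reads and the shorter DSP-002, of 7812 bases, had 907, or 36.6%. Of 15 other desmosome genes 8 were listed, 7 of them above the median gene. PERP at 744 reads per kb, the desmosomal cadherin gene DSG2 at 723 and the plakophilin gene PKP4 at 292 led this list. PERP and DSG2 exceeded DSP both per length and by read counts of 3191 and 4218.

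TJP1 encodes ZO-1, the scaffold of tight junctions that is also found at other cell contacts, and lies on chromosome 15 from 29699367 to 29968915 on the minus strand. It had 7 protein-coding transcripts, a summed mean normalized read count of 1797 and a level of 297 reads per kb. TJP1-009 had 958 reads, TJP1-201 had 465 and TJP1-002 had 178, while the other entries had 107 or fewer. OCLN, which encodes the membrane protein occludin, lies on chromosome 5 from 69492292 to 69558104 on the plus strand. OCLN-001 had 278 reads and OCLN-002 had 65.6, for a level of 80.6 reads per kb, below the median gene. CLDN7, a claudin of epithelial tight junctions, lies on chromosome 17 from 7259903 to 7263983 on the minus strand. It had the lowest level, with 25.3 reads in 1 transcript.

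Of 25 other tight junction genes 14 were listed, and 6 lay above the median gene. CLDN12, another claudin, had 939 reads per kb, F11R, which encodes an adhesion molecule of these junctions, had 303, and CLDN1 had 172. At the low end, CLDN23 had 35.5 reads per kb, CLDN3 18.9, MARVELD2 14.4, TJP3 13.6 and CRB3 9.74, all below OCLN. MARVELD2, TJP3 and CRB3 were also below CLDN7. Of 17 other epithelial genes 9 were listed and 2 exceeded the median gene. AP1M2, an adaptor subunit of polarised sorting, led with 2025 reads per kb. Its summed mean normalized read count was only 984 over 5 transcripts, against 2458 for KRT19. Short transcripts can be overstated per length, so this level should not be set beside that of KRT19. EPCAM, the epithelial adhesion molecule, had 43.3.

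HuR, the target of KH-3, binds AU-rich elements in 3′UTRs, so the pentamer AUUUA was counted on the sense strand of the 3′UTR of each gene's leading protein-coding transcript, as annotated in GENCODE release 44. It occurred in 5 of the 10 genes, against 72.8% of 11600 listed genes with a 3′UTR. OCLN-001 held 16 in 4433 bases, TJP1-009 held 4 in 1360, DSP-001 held 3 in 836, and KRT19-001 and CLDN7-001 held 1 each in 126 and 471 bases. All 4 junction genes thus held the pentamer, while of the keratins only KRT19 did. The 3′UTRs of KRT18-201, KRT7-001, KRT8-001 and KRT81-001 had 58, 161, 241 and 342 bases, below the median of 1260 over all these genes. KRT80-002 held none in 2402 bases. A match of these letters does not show binding by HuR, nor does its lack exclude it.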

How the data were processed

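RNA-seq libraries of MDA-MB-231 cells (2 with DMSO, 2 with 10 µM KH-3) were grouped by their labels. The authors made them with an unstranded mRNA kit, mapped reads with STAR to GENCODE release 24 transcripts and estimated reads per transcript with eXpress. Versions are not given in the sources used here. The deposited mean normalized read count, a signal averaged over libraries by the authors, was the only measurement used. The other 3 numeric columns hold the authors' fold change, p-value and q-value and were not used, so no test was made, and depth and replicate spread are unknown.

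A level is this mean divided by transcript length in kb from the deposited table, summed over the listed transcripts of a gene. Short transcripts can be overstated on this scale. Coordinates, 3′UTRs and shared runs came from hg38 with GENCODE release 44, in which 42 of the 43 transcripts were found by ID without version, 35 with the same length. KRT7-201 was not found, and the leading transcripts of KRT7, KRT80, TJP1 and DSP differed in length. Coding sequence and pseudogene were aligned locally with Biopython 1.88. Named genes were the 10 members, the 3 highest of each list of related genes and of the keratin pseudogenes, and the cell line markers, except 1 gene that is not reported here. Other genes were named after their values were seen. Members and lists were chosen with earlier results of these data known. Computations used Python 3.11.15, pandas 2.3.3 and numpy 2.4.6. The level in its main form and the search for shared runs were tested on simulated data, and the other steps were not.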

Additional observations from a re-analysis of the deposited data

How the results depend on the processing

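No value has an error, since the deposited means pool the libraries, so any shift counts as a change and no library could be left out. No paired analysis was possible because the table has no value per library. The order of the settings below is read counts without division by length, protein-coding transcripts only, the leading transcript only, transcripts at or above the table median, summed reads over the length of the leading transcript, and no transcript under 500 bases; the last and the one before it were chosen after seeing the data. The keratin share was 79.4%, 93.4%, 94.9%, 96.0%, 94.8% and 94.2%. The KRT7 to KRT18 ratio was 0.730, 1.18, 0.578, 1.11, 0.591 and 0.467. The ratio of type II to type I keratins was 0.862, 1.10, 0.563, 0.887, 0.579 and 0.478. The KRT18 to KRT8 ratio was 9.93, 10.7, 16.4, 16.0 and 14.9 under the first 5 and did not change under the last. The number of genes above the median gene was 7 or 8. With transcripts at or above the table median 9 of the 10 genes were left, without CLDN7.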
